A study of Mus musculus with 2 samples.

Results

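Cholesterol handling in macrophages was followed through 8 genes, Apoe, Abca1, Abcg1, Lpl, Mylip, Srebf1, Srebf2 and Ch25h, chosen by symbol, with no threshold on their values, out of 55536 gene identifiers in the deposited gene tables, 22015 of them nuclear protein-coding genes. All 8 were found. The RNA came from the nucleoplasmic fraction of bone marrow-derived macrophages of mouse strain C57BL/6J, which are primary cells grown from marrow, 50 min into treatment with lipid A at 100 ng/ml, the part of bacterial lipopolysaccharide that activates the receptor TLR4. Total RNA was depleted of ribosomal RNA and sequenced in 2 libraries, biological replicates 1 and 2 of this 1 group. The labels give 500 ng of starting RNA for replicate 1 and 1 µg for replicate 2, the same donor entry for both, a nuclear fraction in the source label, and no age or sex. No untreated library was analysed here, so none of the levels below is a response to lipid A, and no test between groups was possible.

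A macrophage that takes up lipoproteins or dying cells cannot break down the sterol ring, so it stores cholesterol as ester, exports it or lowers its own synthesis and uptake. Oxysterols, the oxidised forms of cholesterol, activate the liver X receptors (LXR), which raise the export genes Abca1, Abcg1 and Apoe, the ubiquitin ligase gene Mylip, and Srebf1. When membrane cholesterol is low, the transcription factor SREBP-2, the product of Srebf2, is cut from the membrane and raises the genes of cholesterol synthesis and uptake. The gene body of Srebf2 also carries the microRNA miR-33, which is known to repress Abca1.

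Levels are given in TPM, transcripts per 1000000, a scale that allows for transcript length. Most members stood well above the typical gene of these nuclei, and Ch25h stood near the limit of detection. Of the 8 genes, 7 reached 10 TPM in each library, and Ch25h was the exception. The share of all protein-coding genes at 10 TPM was not computed, so that count has no background. At a level of 1 TPM in each library the count was also 7 of 8, against 38.7% of the 22015 protein-coding genes. The median of the members' mean TPM was 32.8, with 41.2 TPM in replicate 1 and 24.4 TPM in replicate 2. The 9158 protein-coding genes with a mean of at least 1 TPM had a median of 6.52 TPM, with 7.82 and 5.12 TPM in the replicates. The TPM total is shared with noncoding RNA, and when TPM was rescaled over protein-coding genes alone the members' median was 150 TPM, and 8 of 8 genes passed 1 TPM in both libraries. The rescaled median and share of all protein-coding genes were not computed, so 150 TPM cannot be set beside 6.52 TPM.

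The gene tables held 10342882 expected counts on gene rows in replicate 1 and 20495545 in replicate 2. Replicate 2 over replicate 1, the median log2 TPM ratio of protein-coding genes was -0.66, so the TPM of a typical gene was lower in replicate 2, and every SD below includes this common shift. All 8 macrophage markers, among them Lyz2 and Csf1r, reached 10 TPM in each library, with summed levels of 3340 and 2744 TPM. Of 35 markers of adipocytes, hepatocytes, stromal, endothelial, lymphoid, neutrophil and erythroid cells, 3 reached 1 TPM in each library and 11 were at 0 in both. Their summed level was 59.9 TPM in replicate 1 and 35.7 in replicate 2, of which Vwf alone made 50.7 and 28.2 TPM. The adipocyte markers Adipoq, Plin1 and Lep and the hepatocyte markers Alb and Serpina1a were at 0 in the gene tables of both libraries. Of the other markers of these 2 cell types, Cidec had 0 and 2 counts, Retn 0 and 1, Apoa1 2 and 0, Ttr 0 and 2, and Apob 0 and 1. In the second quantification Retn was at 3.44 and 0.578 TPM and Plin1 at 0.249 and 0.0564 TPM. In a bulk sample like this one, fewer cells of a type and less RNA per cell cannot be told apart.

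The sequences that tie these genes together are shown first, because 1 member carries a regulator of another. The miR-33 hairpin lies in intron 16 of 18 of Srebf2, on the same strand. Its mature 5′ arm (RefSeq, GRCm38.p6, chr15:82198127-82198147, plus strand) is printed with the seed, bases 2 to 8, in capitals, followed by stretches of the Abca1 and Abcg1 3′ untranslated regions in which the matches to that seed, CAATGCA, are in capitals.
mmu-miR-33-5p: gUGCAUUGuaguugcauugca
Abca1, chr4:53033783-53033812, minus strand: tattCAATGCAATGCActtCAATGCAacga
Abcg1, chr17:31114995-31115024, plus strand: cgcaacgCAATGCAacgCAATGCAgacagt

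Abca1 held 3 matches, beginning 135 to 150 bases after the stop codon, and the first of them overlaps the next. Abcg1 held 2, beginning 717 and 727 bases after the stop. The longest annotated 3′ untranslated regions of the other 6 members held 0. Among 21021 protein-coding genes with such a region, 7.12% held at least 1 match, and among the 2514 genes whose region is at least as long as the 3156 bases of Abca1, 22.8% did. A match is a description of letters and no measure of repression.

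RefSeq start windows, the 250 bases before each annotated start, were given for 6 of the 8 members, not for Abcg1 or Lpl. An element of the spelling TGACCG, 4 bases, TAACCC, read on both strands, is in capitals in the Abca1 and Srebf1 windows. The sterol element TCACCCCA is in capitals in that of Srebf2. The Srebf1 stretch lies before the inner of its start sites, from which the SREBP-1c form is made.
Abca1, chr4:53159896-53160045, minus strand: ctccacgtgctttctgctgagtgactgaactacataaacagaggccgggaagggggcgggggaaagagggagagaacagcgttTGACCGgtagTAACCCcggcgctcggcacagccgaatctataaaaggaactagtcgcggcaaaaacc
Srebf1 inner start, chr11:60210472-60210671, minus strand: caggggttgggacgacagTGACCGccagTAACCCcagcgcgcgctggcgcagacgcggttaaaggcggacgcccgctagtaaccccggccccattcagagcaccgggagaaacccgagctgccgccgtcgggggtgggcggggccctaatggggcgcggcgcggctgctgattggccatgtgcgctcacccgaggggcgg
Srebf2, chr15:82147031-82147180, plus strand: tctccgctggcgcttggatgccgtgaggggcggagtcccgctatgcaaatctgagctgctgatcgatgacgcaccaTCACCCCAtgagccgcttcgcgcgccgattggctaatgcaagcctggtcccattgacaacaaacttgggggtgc

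The first spelling stood at bases -67 to -52 of Abca1 and -182 to -167 of the Srebf1 inner start, counted from the RefSeq start. It was found in 3 of 32851 windows of all genes, or 0.00913%. It was chosen after the sequences of these windows had been read, so that share supports nothing about the members. The textbook repeat AGGTCA, 4 bases, AGGTCA was in 5 windows, or 0.0152%, and in none of the members. The sterol element stood at -162 to -155 of Srebf2 and -213 to -206 of the Apoe start at base 19699188 of chromosome 7, and in 441 windows in all, or 1.34%. The CCAAT box, ATTGG, was in 33.8% of windows, those of Mylip, Srebf1 and Srebf2 among them.

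Among the export genes Apoe and Abca1 were abundant and Abcg1 was not. Apoe (ENSMUSG00000002985.16, mm10 chromosome 7, 19696109 to 19699188, minus strand) encodes apolipoprotein E, a secreted acceptor of exported cholesterol. It was at 502 and 894 TPM in replicates 1 and 2, 698 ± 277 TPM (SD, n = 2), from 4846 and 25929 expected counts. It was the highest member in both libraries and stood 57th and 12th among protein-coding genes by TPM. Abca1 (ENSMUSG00000015243.4, chromosome 4, 53030787 to 53159895, minus strand), the transporter that loads cholesterol onto lipid-poor apolipoprotein A-I, was at 308 and 201 TPM in replicates 1 and 2, 254 ± 75.8 TPM (SD, n = 2). Its libraries did not overlap those of Apoe in the gene tables, and the Apoe level was 1.63 and 4.46 times the Abca1 level in replicates 1 and 2.

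Counted as reads rather than per length, Abca1 was far ahead of the other members. Its 34386 expected counts in replicate 1 were 0.332% of gene counts (Wilson 95% interval 0.329 to 0.336), and its 66646 counts in replicate 2 were 0.325% (0.323 to 0.328). It ranked 10th and 11th among protein-coding genes by counts. The 8 members together held 0.511% of gene counts in replicate 1 and 0.589% in replicate 2, so most of their counts lay on Abca1. These intervals hold counting error within a library alone and no spread between replicates. PCR copies of a molecule were not marked and count as separate reads, so even the counting error may be larger.

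Abcg1 (ENSMUSG00000024030.7, chromosome 17, 31057675 to 31117988, plus strand), the transporter that passes cholesterol to high-density lipoprotein, was an order of magnitude lower. It was at 19.3 and 15.3 TPM in replicates 1 and 2, 17.3 ± 2.82 TPM (SD, n = 2). The Abca1 level was 15.9 times the Abcg1 level in replicate 1 and 13.1 times in replicate 2. An annotated ribosomal RNA gene inside an Abcg1 intron, Gm25447, was at 0 counts in the gene tables of both libraries, and at 3 and 25 estimated counts in the second quantification.

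On the uptake side, Lpl and Mylip have opposite roles. Lpl (ENSMUSG00000015568.16, chromosome 8, 68880491 to 68907448, plus strand), the lipoprotein lipase that macrophages secrete, was at 208 and 144 TPM in replicates 1 and 2, 176 ± 45 TPM (SD, n = 2). Its libraries overlapped those of Abca1, although Abca1 was the higher in each, by 1.48 and 1.39 times. Mylip (ENSMUSG00000038175.10, chromosome 13, 45389742 to 45412022, plus strand) encodes IDOL, a ubiquitin ligase that lowers lipoprotein uptake by sending lipoprotein receptors to degradation. It was at 39.2 and 19.0 TPM in replicates 1 and 2, 29.1 ± 14.3 TPM (SD, n = 2), and its libraries overlapped those of Srebf2 and of Srebf1.

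The 2 sterol regulatory factors were of similar rank, with Srebf2 the higher. Srebf2 (ENSMUSG00000022463.8, chromosome 15, 82147181 to 82205379, plus strand) was at 43.2 and 29.8 TPM in replicates 1 and 2, 36.5 ± 9.51 TPM (SD, n = 2). Srebf1 (ENSMUSG00000020538.15, chromosome 11, 60199089 to 60222581, minus strand), which drives mainly fatty acid synthesis, was at 22 and 13.1 TPM in replicates 1 and 2, 17.6 ± 6.27 TPM (SD, n = 2). Srebf2 exceeded Srebf1 by 1.97 times in replicate 1 and 2.27 times in replicate 2, and the libraries of these genes did not overlap in the gene tables. Srebf1 and Abcg1 changed places between the replicates, with a Srebf1 to Abcg1 ratio of 1.14 in replicate 1 and 0.856 in replicate 2.

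Ch25h (ENSMUSG00000050370.5, chromosome 19, 34473778 to 34475164, minus strand) encodes cholesterol 25-hydroxylase, which makes the oxysterol 25-hydroxycholesterol. It was at 0.69 and 1.6 TPM in replicates 1 and 2, 1.15 ± 0.643 TPM (SD, n = 2), from 9 and 65 counts. Per 1000000 gene counts these were 0.87 (Wilson 95% interval 0.458 to 1.65) and 3.17 (2.49 to 4.04), so the intervals of the libraries did not overlap. Such intervals hold counting error alone, and those of Apoe, Abca1, Abcg1, Lpl and Mylip did not overlap between the libraries either. A count of 0 would have allowed up to 0.29 and 0.146 per 1000000, taking 3 counts as the limit, so Ch25h was detected in each library. The next member above it, Abcg1, was 28.0 times higher in replicate 1 and 9.57 times in replicate 2. Gm26902, a noncoding gene on the opposite strand that overlaps Ch25h, had 1 and 4 counts, and no source used here gives the strand setting of the counting.

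**Figure D1:**
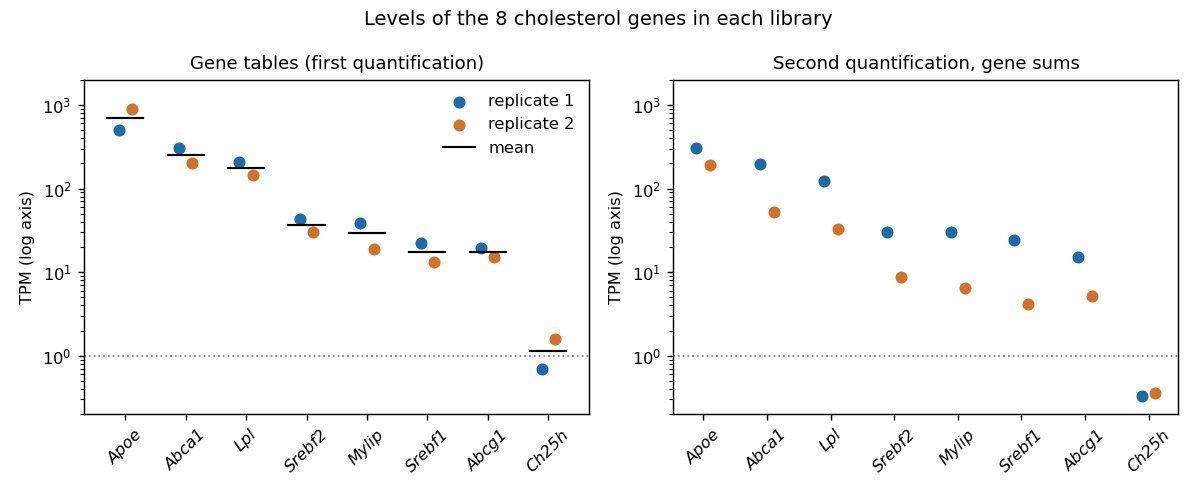
TPM of the 8 genes on a log axis, in the gene tables (left, with the mean of the replicates as a bar) and as gene sums of the second quantification (right); blue is replicate 1, orange replicate 2, and the dotted line is 1 TPM. Apoe, Abca1 and Lpl lie above 100 TPM in both libraries on the left, 4 genes lie between 13.1 and 43.2 TPM, and Ch25h lies at 0.69 and 1.6 TPM.

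The order of the members had 3 steps in the gene tables. Apoe over Abca1, Lpl over Srebf2 and Abcg1 over Ch25h were the neighbours whose libraries did not overlap. Lpl stood 4.81 and 4.84 times above Srebf2 in replicates 1 and 2. In the second quantification Apoe, at 307 and 191 TPM, overlapped Abca1, at 196 and 52.7 TPM, though Apoe was the higher in each library. The steps from Lpl to Srebf2 and from Abcg1 to Ch25h held there. Within the groups between these steps the neighbours Abca1 and Lpl, Srebf2 and Mylip, Mylip and Srebf1, and Srebf1 and Abcg1 all overlapped in TPM, a range that includes the common shift between the libraries. Within each library the order of the first 3 of these pairs was the same, in both quantifications, and that of Srebf1 and Abcg1 was not. The second quantification, made by the authors from the reads, gave lower TPM for the typical gene, by a median log2 ratio of -0.32 in replicate 1 and -1.73 in replicate 2. Of the 8 genes, 0 departed from that median by more than 2-fold in both libraries, against 4.98% of the 9158 protein-coding genes.

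Apoe and Ch25h were the members more than 2-fold apart between the replicates, relative to the median gene. After subtraction of the median ratio, the log2 TPM ratio of replicate 2 over replicate 1 was 1.5 for Apoe and 1.88 for Ch25h, or 2.82-fold and 3.67-fold. The other 6 members lay between -0.38 (Mylip) and 0.33 (Abcg1). Thus 2 of 8 genes were past 2-fold with replicate 2 higher, against 3.77% of protein-coding genes, and 0 were past 2-fold with replicate 1 higher, against 2.9%. With 1 group of 2 libraries this is the spread between them and no test can be made of it.

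The counts gave the same picture as TPM. Relative to the median gene, the log2 ratio of counts was 1.5 for Apoe and 1.93 for Ch25h, and that of the second quantification was 1.43 and 2.21. Among the 8 genes of the LXR and RXR group, 1 was past 2-fold with replicate 2 higher, against 3.77% of protein-coding genes. It was Nr1h3, the gene of LXR alpha, named after its ratio was seen. Nr1h3 had 133 and 741 counts, 7.16 and 13.8 TPM, and a relative log2 TPM ratio of 1.6. No link between the Nr1h3 and Apoe ratios was tested. Of the members, Abcg1, Abca1, Srebf1 and Mylip were less than 2-fold from the median gene. Abcg1 had a relative log2 TPM ratio of 0.33, Abca1 of 0.04, Srebf1 of -0.08 and Mylip of -0.38. By counts Abcg1 was at 0.25 and Srebf1 at 0.26, and in the second quantification Abcg1 was at 0.54 and Srebf1 at -0.40. The libraries also differed in RNA input and depth, and the part of these in the Apoe and Ch25h ratios was not tested.

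**Figure D2:**
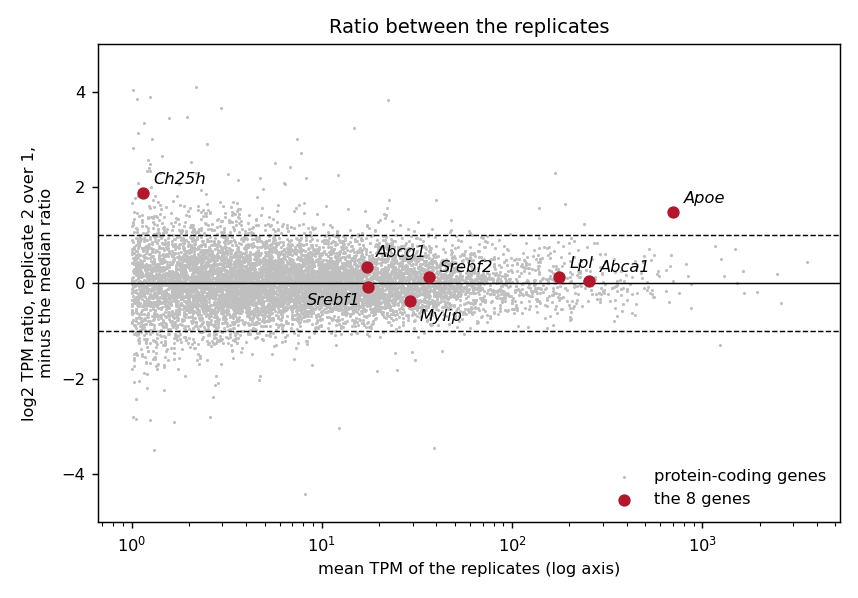
Log2 TPM ratio of replicate 2 over replicate 1 minus the median ratio, against the mean TPM on a log axis, for the 9158 protein-coding genes with a mean of at least 1 TPM (grey) and the 8 genes (red). Dashed lines mark 2-fold; Apoe at 1.5 and Ch25h at 1.88 lie above the upper line, and the other 6 lie between -0.38 and 0.33.

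The transcript tables divide each gene among its annotated isoforms, 45 for the 8 genes. Abca1, Lpl and Mylip were carried almost entirely by 1 coding isoform in the first quantification. Abca1-201, of 50 exons, held 99% and 97.1% of the gene's TPM in replicates 1 and 2. Lpl-201 held 98.8% and 97.6%. Mylip-201 held 100% and 97.7%, but the second quantification placed 352 and 489 estimated counts on the shorter coding isoform Mylip-202, where the first had 0 and 25.6. In the second quantification Mylip-202 made 21.8% and 24.3% of the gene's TPM. Abca1-202, a short isoform with no coding annotation, had 0.995% and 2.87% of Abca1 TPM in the first quantification and 5.61% and 11.0% in the second. Ch25h has a single exon and a single isoform.

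Abcg1 was mainly its full-length isoform. Abcg1-201, of 15 exons, held 84.1% and 77.4% of TPM and 96.6% and 95.1% of counts. The short coding isoform Abcg1-205 held 9.17% and 12.7% of TPM, from 22.9 and 77.8 expected counts. The second quantification gave Abcg1-205 28.1% and 25.1%, and the retained-intron isoform Abcg1-202 10% and 12.7%. A short isoform gains TPM from few counts because TPM divides by effective length, so shares of TPM and of counts are both given.

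Apoe was divided between a coding isoform and one with no coding annotation. Apoe-209, of 4 exons, held 72.8% and 75.3% of TPM in replicates 1 and 2. Apoe-202, annotated as a processed transcript, held 15.1% and 19.7%, from 433 and 3236 counts. Apoe-202 differs from Apoe-209 by its first exon and by an additional intron of 386 bases, 19696338 to 19696723, inside the last exon. The coding isoform with the longest last exon, Apoe-206, held 11.1% and 4.17%. Counts on Apoe-209 were 3629 and 20957, so the higher Apoe level of replicate 2 was on its main coding isoform as well as on Apoe-202.

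Srebf2 held the larger retained-intron share. Srebf2-201, of 19 exons, held 60.7% and 58.0% of TPM in replicates 1 and 2. Srebf2-205 held 23.5% and 17.7% and Srebf2-207 held 10.6% and 22.2%, and both are annotated as retained introns at the 5′ end of the gene. Srebf2-207 keeps the whole of intron 2, 947 bases, and both keep part of intron 4, of 2197 bases. Their order thus differed between the replicates, with 201 and 321 counts on Srebf2-205 and 126 and 555 on Srebf2-207. Reads on the kept intron bases cannot be told apart from unspliced Srebf2 RNA in these nuclear libraries. In the second quantification the short coding isoform Srebf2-202 took 12.3% and 20.8% of TPM, from 61.1 and 178 counts. In the first it had 0 and 9.78 counts.

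Inside intron 11 of Srebf2, on the same strand, lies Gm49502, a gene of 2110 bases (82185516 to 82187625) annotated as still to be tested experimentally. It held 221 and 442 counts, or 10.4 and 6.78 TPM in the same order, levels within an order of magnitude of the host gene. In nuclear RNA these reads cannot be told apart from unspliced Srebf2 RNA, so they do not show a separate transcript. Mir33, the hairpin gene of 69 bases whose 5′ arm is printed above, was at 0 counts in both gene tables and at 4 and 1 estimated counts in the second quantification. The labels give a size range of 250 to 400 with no unit. Neither these counts nor the level of the host gene measure the mature microRNA.

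Srebf1 was the member with the most annotated isoforms, 12 in all, 3 of them coding. Srebf1-201, from the outer start and encoding the SREBP-1a form, held 376 of the gene's 461 expected counts in replicate 1 and 878 of 1047 in replicate 2. Its 5′ end lies 23 bases from the RefSeq outer start. Srebf1-207 begins 6 bases from the inner start, 10156 bases downstream, and held 11.8 and 9.78 counts. The second quantification gave Srebf1-201 573 and 945 estimated counts and Srebf1-207 21.8 and 188. The outer form thus had the more counts in each of the 4 tables, but the inner form's count in replicate 2 differed by over an order of magnitude between the quantifications. These forms share most of their exons, so their separation rests on the reads over the others.

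By TPM the same gene looked different. Srebf1-201 held 37.3% and 48.1% of TPM, and the short noncoding isoforms Srebf1-202, Srebf1-211 and Srebf1-212 held 15.8%, 15.5% and 13.3% in replicate 1, on 11.6, 27.8 and 17.6 counts. In replicate 2 these held 5.8%, 11.5% and 7.4%. Srebf1-204, a noncoding isoform of 367 bases from the most upstream start, had 0 and 2.06 counts in the first quantification and 26.0 and 14.1 in the second, where it made 23.3% and 10% of TPM. Srebf1-210 held 7.64% and 3.36% of TPM in the first and 16.8% and 9.69% in the second. The microRNA genes Mir6921 and Mir6922 inside Srebf1 were at 0 counts in both libraries and both quantifications. The 3′ end of Srebf1 overlaps that of Rai1 on the opposite strand, which had 643 and 1172 counts, and reads there cannot be assigned with certainty.

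**Figure D3:**
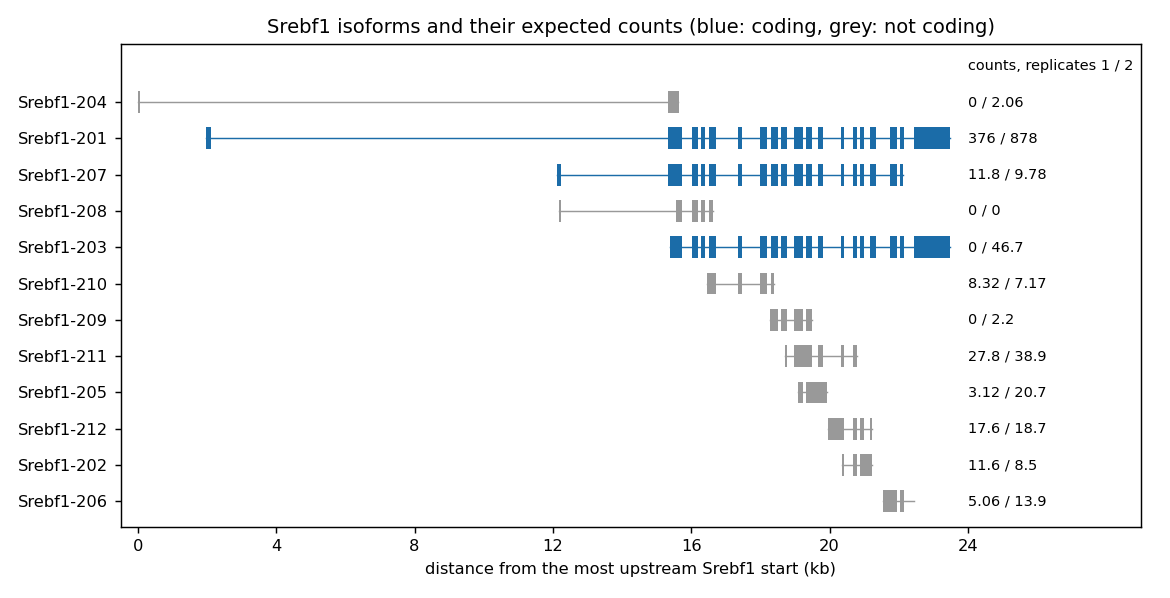
The 12 annotated Srebf1 isoforms by distance from the most upstream start, in kb, with exons as boxes (blue coding, grey not coding) and expected counts of replicates 1 and 2 at the right. Srebf1-201 holds 376 and 878 counts, while Srebf1-207, from the inner start, holds 11.8 and 9.78.

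Across the 45 isoforms, the second quantification spread counts onto minor isoforms. The share of the gene's counts was over 2-fold higher there in both libraries for 13 isoforms and over 2-fold lower for 1, Apoe-211. The 13 were Mylip-202, Abcg1-205, Abca1-202, Lpl-202, Lpl-204, Apoe-203, Apoe-204, Apoe-207, Srebf1-204, Srebf1-209, Srebf1-210, Srebf2-202 and Srebf2-203. None of them held more than 3.26% of its gene's counts in the first quantification, and the largest share in the second was 16.5%, of Mylip-202 in replicate 2.

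In all, 6 members have at least 1 isoform not annotated as coding, and 0 of these had more than 50% of transcript TPM in such isoforms in both libraries, against 20.9% of 7677 protein-coding genes. Srebf1 came nearest, at 61.1% in replicate 1 and 48.4% in replicate 2, followed by Srebf2 at 39.3% and 39.9%. Apoe was at 15.4% and 19.8%, Abcg1 at 6.74% and 7.37%, Lpl at 1.17% and 2.42%, and Abca1 at 0.995% and 2.87%. The medians of the 7677 genes were 31.0% and 33.7%, so by this measure Srebf1 and Srebf2 lay above the median and the other 4 below it. By counts Srebf1 was at 15.9% and 10.7%, against medians of 15.6% and 17.0%, and Srebf2 at 19.0% and 23.3%. The second quantification gave Srebf1 80.0% and 59.1% of TPM, which passes 50% in both libraries. There Srebf2 was at 34.9% and 30%, below the gene medians of 46.2% and 44.6%.

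**Figure D4:**
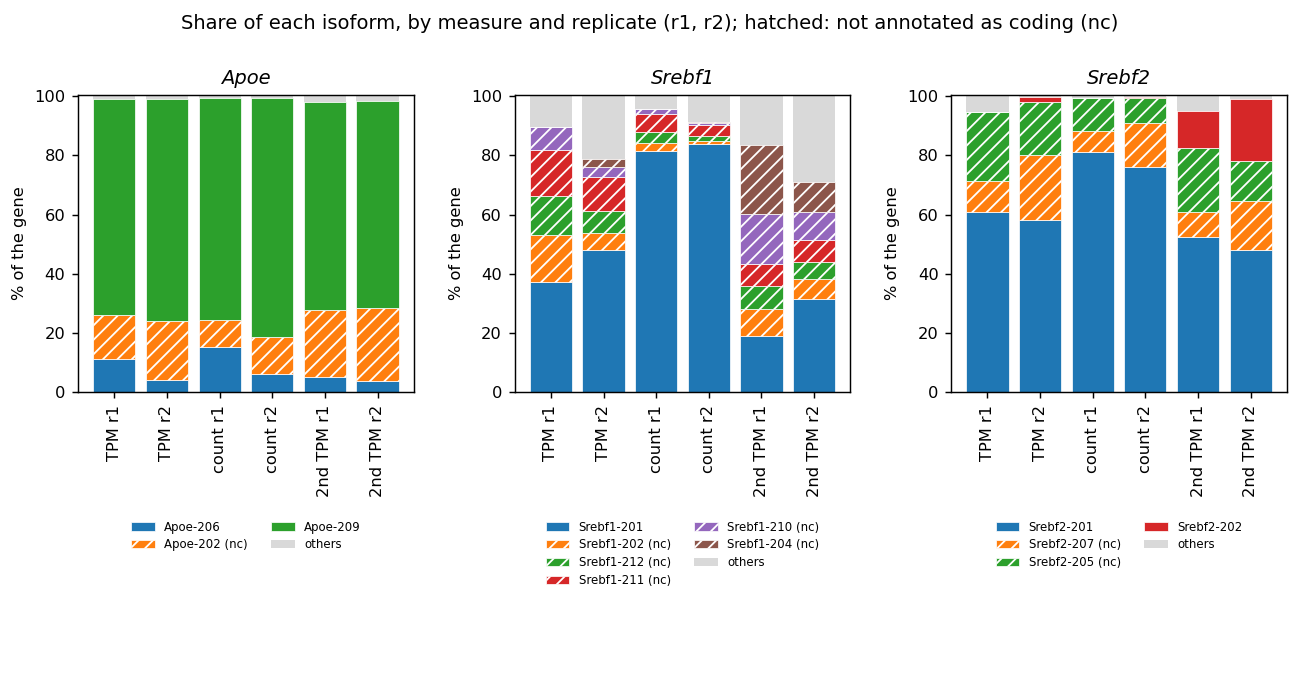
Share of each isoform of Apoe, Srebf1 and Srebf2, in percent of the gene, by TPM and by counts of the first quantification and by TPM of the second (2nd), for replicates 1 and 2; hatched parts are not annotated as coding, and isoforms under 10% in every measure are pooled in grey. Srebf1-201 makes 37.3% and 48.1% of TPM but 81.5% and 83.9% of counts, while the main isoform of Apoe keeps 70.2% to 80.8% under every measure.

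The genes around the members were read in 9 lists of 86 genes, all of which were found in the tables. Counts at 1 TPM in each library are those of the gene tables, where the share of all protein-coding genes was 38.7%. Of the 20 enzymes of cholesterol synthesis, the targets of SREBP-2, 16 reached 1 TPM in each library, and the median of the 20 was 4.19 TPM. Among the highest were the sterol methyl oxidase gene Msmo1, at 42.5 and 28.1 TPM in replicates 1 and 2, and Hmgcs1, which makes HMG-CoA, at 33.9 and 22.7 TPM. The lowest were Mvk, at 1.18 and 0.71 TPM, and Hsd17b7, at 1.2 and 0.67 TPM. Of the 18 enzymes with a mean of at least 1 TPM, 1 was past 2-fold with replicate 2 higher, Ebp (relative log2 ratio 1.09). With replicate 1 higher it was also 1, Nsdhl (-1.05). The shares over protein-coding genes were 3.77% and 2.9%, so nothing about the list is read from these counts. The list sits below the members' own median, and its count of 16 was 8 in the second quantification.

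The sensor arm was detected throughout in the gene tables. All 8 genes of SREBP processing and turnover reached 1 TPM in each library, and their median was 8.98 TPM. Insig1, which holds SREBP in the endoplasmic reticulum, was the highest at 80.8 and 52.1 TPM, followed by Fbxw7 at 17.2 and 8.31 TPM. The lowest were the SREBP escort Scap at 5.91 and 5.87 TPM and Rnf139 at 3.58 and 2.68 TPM. In the second quantification Rnf139 was at 2.27 and 0.638 TPM, so it did not reach 1 TPM in both libraries there. All 8 genes of the LXR and RXR group also reached 1 TPM, with a median of 16.1 TPM. The corepressor Ncor1 was the highest at 94.1 and 40 TPM. Nr1h2, the gene of LXR beta, was at 29.9 and 21.9 TPM. The lowest were Rxrb at 7.2 and 6.2 TPM and Rxra at 4.81 and 3.59 TPM. Rxra was at 2.75 and 0.841 TPM in the second quantification, below 1 TPM in replicate 2.

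Of the lipoprotein uptake genes 6 of 8 reached 1 TPM in each library, and the median of the list was 7.84 TPM. Lrp1, a large receptor that takes up particles carrying apolipoprotein E, was at 459 and 257 TPM, a level of the order of Apoe and Abca1. Lrpap1, the chaperone of Lrp1, was at 11.5 and 14.4 TPM. Vldlr was the lowest, with 3 and 1 counts. The lysosomal and esterification genes, 8 of 8, had the highest median of the lists, 98.7 TPM. In that list Lamp1 was at 276 and 248 TPM, the acid lipase Lipa at 174 and 118 TPM and the cholesterol carrier Npc2 at 130 and 107 TPM. Nceh1, at 54.2 and 36.6 TPM, and Stard3, at 19.2 and 14.6 TPM, were its lowest.

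Levels of the export partners were uneven, with means from 0.025 to 158 TPM and a list median of 2.38 TPM. Of the 10 genes, 5 reached 1 TPM in each library, against 38.7% of all protein-coding genes. Abca7, 1 of these 5, was at 0.887 TPM in replicate 2 of the second quantification. Pltp, the phospholipid transfer protein, was at 160 and 156 TPM, followed by Arl4c at 29.3 and 15.2 TPM and Tmem135 at 18.4 and 15.8 TPM. The genes beside Apoe on chromosome 7 were far below it: Apoc1 had 0 and 1 counts and Apoc4 0 and 1 counts, and Apoc2 had 5 and 14. Abcg4, the closest relative of Abcg1 among the listed transporters, had 0 and 4 counts. For Apoc4 the second quantification gave 5.77 and 1.08 TPM where the gene tables gave 0 and 0.08.

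Around Lpl, 2 of 7 genes reached 1 TPM in each library, against 38.7% of all protein-coding genes. The maturation factors Sel1l, at 71.9 and 53.7 TPM, and Lmf1, at 8.59 and 3.97 TPM, were these 2. The inhibitor gene Angptl4 was low, at 0.11 and 0.21 TPM, and Gpihbp1, the endothelial anchor of the lipase, Apoa5 and Apoc3 were at 0 counts in both libraries. Of the oxysterol genes beside Ch25h, 4 of 7 reached 1 TPM in each library, against the same 38.7%. Cyp27a1, the sterol 27-hydroxylase, was at 81.2 and 59.7 TPM, so it and not Ch25h was the most abundant oxysterol-forming enzyme of the list per length. Osbpl1a, at 21.2 and 9.64 TPM, and Hsd3b7, at 16.9 and 13.3 TPM, followed. Cyp46a1 had 0 and 1 counts, and Cyp7b1, which degrades the product of Ch25h, had 0 in both, which allows up to 0.29 and 0.146 counts per 1000000.

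Of the fatty acid synthesis genes under SREBP-1, 7 of 10 reached 1 TPM in each library, and the list median was 3.9 TPM. Among these 7, Fads2 and Acss2 were at 0.279 and 0.71 TPM in replicate 2 of the second quantification. The desaturase Scd2 was at 46.6 and 25.9 TPM, the citrate lyase Acly at 11.6 and 9.2 TPM and the carboxylase Acaca at 11.7 and 6.34 TPM. Elovl6, at 0.79 and 0.37 TPM, and Me1, with 0 and 3 counts, were the lowest. Of the 8 genes of this list with a mean of at least 1 TPM, 2 were past 2-fold with replicate 1 higher, against the 2.9% above. These were Scd1, with a relative log2 ratio of -1.21, and Fads2, with -1.16. Srebf1 itself had -0.08.

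**Figure D5:**
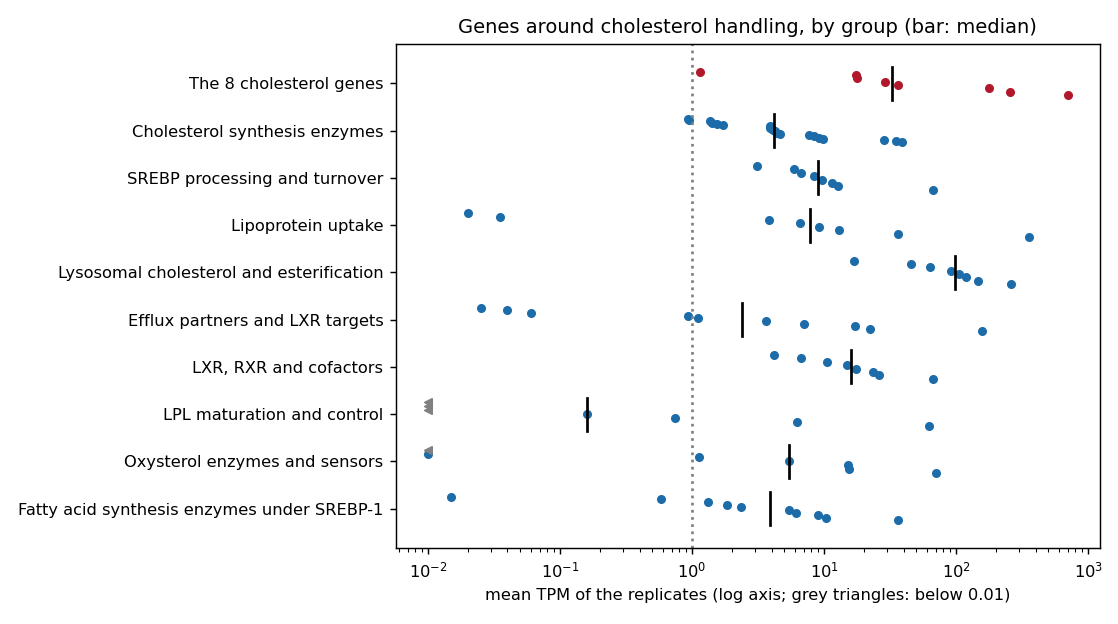
Mean TPM of the replicates on a log axis for each gene of the 9 lists (blue) and the 8 cholesterol genes (red), with the median of each group as a bar and genes below 0.01 TPM as grey triangles. The medians run from 0.16 TPM for Lpl maturation and control to 98.7 TPM for the lysosomal genes, with the 8 genes at 32.8 TPM.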

How the data were processed

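Per the file headers, the deposited gene tables and the first transcript tables follow the RSEM layout, with expected counts and TPM. A second deposited transcript table follows the kallisto layout, with estimated counts and TPM. Readme files of the authors name mm10 and annotation M21, and say that the first were made from transcriptome alignments and the second from the reads. The programs, their versions, the strand setting and any trimming were not given in the sources used here. Whether the 2 replicates came from separate cultures is known only from their biological replicate numbers.

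Members and gene lists were chosen with earlier results of these data known. Symbols and positions came from GENCODE M21, the same build, and sequences from RefSeq GRCm38.p6 or the genome. Spike-in and numeric rows, 0.504% and 0.0968% of counts, were left out. The TPM ratio between libraries was centred on its median over protein-coding genes with a mean of at least 1 TPM, and 2-fold was taken as past. Expected counts were rounded for edgeR 4.0.16 (TMM) and DESeq2 1.42.0 size factors, which were used for scaling only. The calculation of the ratio was run on simulated counts with planted changes and no variation between replicates beyond counting error. That run checks the arithmetic alone. It left out genes with counts as low as those of Ch25h in replicate 1. The named genes are the 8 members, the 3 highest and 2 lowest of each list, list genes of other groups of interest, isoforms with at least 10% of a gene in any table or a share of counts over 2-fold apart between the quantifications in both libraries, and genes on the same bases as a member. Some list genes that this rule names are not reported here. Genes named as past 2-fold, Apoc1, Apoc2, Abca7, Acss2 and the single markers named were chosen after their values were seen. Depth was 10342882 and 20495545 counts, and Python 3.11.15 with pandas 2.3.3 and R 4.3.3 were used.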

Additional observations from a re-analysis of the deposited data

How the results depend on the processing

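Of 32 alternatives run over 6 results, 25 stayed within 1.5 times of the value given or within its SD, and 7 did not. The members' median of 32.8 TPM was 18.9 TPM in the second quantification and 150 TPM when rescaled over protein-coding genes. Leaving out each replicate gave 24.4 to 41.2 TPM. The SD of the median came from these same values, so they lay within it by construction and show no stability. Of the 8 members, 7 to 8 passed the level set in each alternative run, and where 1 did not it was Ch25h. Of the 20 synthesis enzymes, 16 passed 1 TPM, 8 in the second quantification and 7 at 5 TPM, and 16 to 20 when each replicate was left out. Of 6 members, 0 had over 50% of TPM in noncoding isoforms, but 1 did in the second quantification (Srebf1), 2 at a threshold of 25% (Srebf1 and Srebf2), and 0 to 1 when each replicate was left out (Srebf1, in replicate 1 alone). The cause was not tested. Apoe and Ch25h were the 2 members past 2-fold between the replicates under all 6 alternatives, with the relative log2 ratio of Apoe from 1.38 to 1.54 and that of Ch25h from 1.17 to 2.21. No paired analysis was possible because the series has 1 group. Depth limits Ch25h most, at 9 and 65 counts, and 1 count on a short isoform moves its TPM share.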
